A study of Mus musculus with 12 samples.

Results

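FoxP3 binding was described at 5 TNF receptor family genes on mouse chromosome 4: Tnfrsf18, Tnfrsf4, Tnfrsf9, Tnfrsf1b and Tnfrsf8. The members were all peaks whose summit lay in 1 of 3 fixed windows in mm9 coordinates, one of 100 kb for Tnfrsf18 and Tnfrsf4 (chromosome 4 from 155350000 to 155450000), one of 90 kb for Tnfrsf9 (150260000 to 150350000) and one of 180 kb for Tnfrsf1b and Tnfrsf8 (144750000 to 144930000). Overlapping peaks (1 bp or more) of any libraries formed 1 region. The windows held 27 of the 24765 regions found in all libraries together. Of these, 8 lay in the Tnfrsf18 and Tnfrsf4 window, 5 in the Tnfrsf9 window and 14 in the Tnfrsf1b and Tnfrsf8 window.

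FoxP3, the forkhead transcription factor that defines regulatory T (Treg) cells, was immunoprecipitated with an affinity purified rabbit polyclonal antibody, and the bound DNA was sequenced (ChIP-seq). The WT cells came from FoxP3WT:hCD2 mice and the A384T cells from FoxP3A384T:hCD2 mice, in which FoxP3 carries the substitution A384T; both lines are C57BL/6J and both carry the human CD2 (hCD2) reporter by which CD4+hCD2+ cells were sorted magnetically. Cells came from lymph nodes and spleen and were used fresh and untreated; age and sex are not given in the sources used here. There were 3 ChIP libraries per genotype, with 17520951 to 25386770 tags after removal of duplicates, and 6 input libraries are labelled but were not used here. No source used here says that the replicates came from separate animals, so the p-values measure only how these libraries vary, and that variation may be technical. Peak lists hold no expression values, so the cell type rests on the labels.

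Values given 3 at a time follow the order of replicates 1, 2 and 3. List length varied widely within each genotype, with 20723, 1746 and 3905 peaks for WT on the standard chromosomes and 18147, 6657 and 2050 for A384T. The 2 long lists are the replicate 1 libraries, which were sequenced with 51 bp tags where the others had 49 bp. They also had the fewest tags after removal of duplicates, 17520951 (WT) and 18255500 (A384T), where the others had 21752899 to 25386770. Their fragment lengths were the longest, at 150 and 149 bp against 123 to 135 bp. The part of these differences in list length was not tested. A region absent from a short list may still have been bound below the authors' cutoff.

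The 5 receptors belong to the TNF receptor superfamily, whose members sit on the cell surface, are brought together by trimeric ligands and signal through TRAF adaptor proteins, largely to NF-kB. Tnfrsf18 encodes GITR and Tnfrsf4 encodes OX40 (CD134), costimulatory receptors that Treg cells carry at high levels. Tnfrsf9 encodes CD137, a costimulatory receptor of activated T cells. Tnfrsf1b encodes the TNF receptor CD120b, which supports Treg expansion and stability, and Tnfrsf8 encodes CD30, found on activated lymphocytes. All 5 genes were found in the RefSeq gene table of assembly GRCm38.p6, where Tnfrsf4 and Tnfrsf18 are neighbours between Sdf4 and Ttll10, Tnfrsf1b follows Dhrs3 and precedes Tnfrsf8, and Tnfrsf9 lies between Park7 and Per3. That table is of another build than the peaks, so it gave names and order only, and no region was assigned to a promoter, exon or intron.

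The promoters of Tnfrsf18 and Tnfrsf4 are shown because their shared window held the region found in all 6 libraries, which lies at an unknown distance from these starts. They are the 250 bases before the annotated start in RefSeq on GRCm38.p6, plus strand, at chr4:156026072-156026321 for Tnfrsf18 and at chr4:156013445-156013694 for Tnfrsf4. These positions are not on the scale of the mm9 positions below. Capitals mark a match to a forkhead core motif.
Tnfrsf18: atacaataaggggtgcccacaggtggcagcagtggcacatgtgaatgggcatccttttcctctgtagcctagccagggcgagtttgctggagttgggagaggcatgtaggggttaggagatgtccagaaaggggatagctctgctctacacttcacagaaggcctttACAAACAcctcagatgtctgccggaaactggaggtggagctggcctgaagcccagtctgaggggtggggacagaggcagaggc
Tnfrsf4: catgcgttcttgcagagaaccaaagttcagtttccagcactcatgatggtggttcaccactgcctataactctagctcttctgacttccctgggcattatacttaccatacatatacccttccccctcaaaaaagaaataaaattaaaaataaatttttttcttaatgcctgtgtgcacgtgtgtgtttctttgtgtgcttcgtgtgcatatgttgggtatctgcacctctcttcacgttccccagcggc

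Both strands of the 6 annotated promoters of the 5 genes were searched for 2 forkhead motifs, TGTTTAC (reverse complement GTAAACA) and TGTTTGT (reverse complement ACAAACA), which share their first 5 letters and cannot both match from the same base. TGTTTAC was in 0 of the 6 promoters and in 3.17% of all 32851 promoters of the same length. TGTTTGT was in 1 of the 6, that of Tnfrsf18, as ACAAACA starting 83 bases before the start, and in 5.84% of all promoters. The motifs were chosen after the sequences were seen, and a match describes the letters only.

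The receptor windows held more peaks per 100 kb than chromosome 4 as a whole in every library, though the short lists had as few as 1 peak in all 3 windows. The windows held 6.76 peaks per 100 kb in WT replicate 1, where chromosome 4 held 0.779 between its first and last peak, and 5.95 against 0.711 in A384T replicate 1. In the shorter lists the windows held 0.27 against 0.05 in WT replicate 2, 0.541 against 0.139 in WT replicate 3, 2.16 against 0.239 in A384T replicate 2 and 0.811 against 0.0848 in A384T replicate 3. The flanks were sparser in the long lists. In WT replicate 1 the Tnfrsf18 and Tnfrsf4 window held 7 peaks, with 1 peak in the same width on either side, and the Tnfrsf1b and Tnfrsf8 window held 13, again with 1 on either side. The Tnfrsf9 window held 5, with 3 before it and 2 after it. In A384T replicate 1 the 3 windows held 8, 4 and 10 peaks, and no flank of the same width held more than 3. In the short lists the windows were not always above their flanks: WT replicates 2 and 3 had 0 peaks in the Tnfrsf9 window and 1 in the same width before it. These loci were proposed with results of these data known, so their density is a description.

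**Figure D1:**
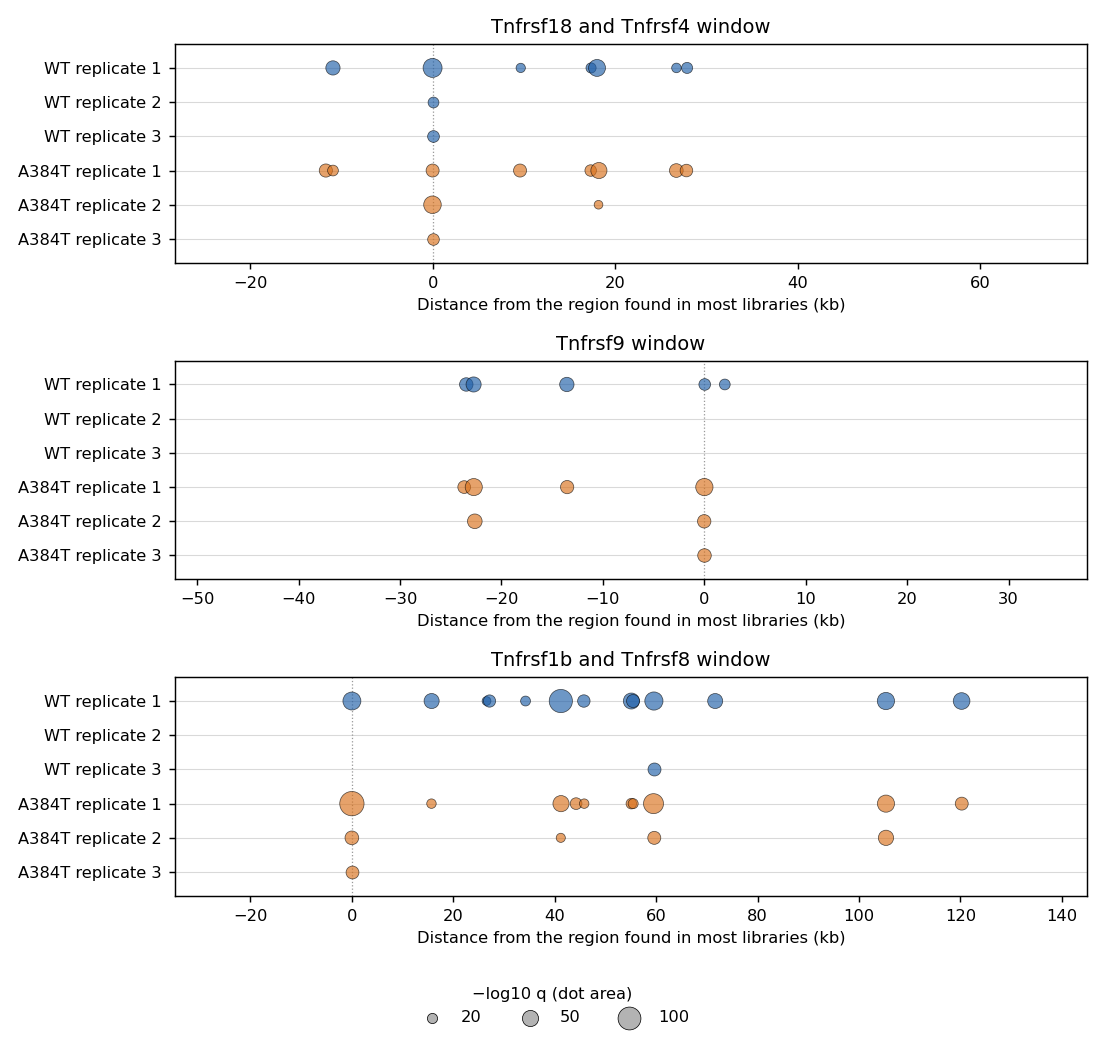
Position of every peak in the 3 windows, by library. The x axis is the distance in kb from the region found in most libraries (dotted line), each row is a library, and dot area is the −log10 q of the peak; the replicate 1 libraries fill the rows with 25 peaks (WT) and 22 peaks (A384T), where the other libraries have 1 to 8.

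The edges of the windows cut through no cluster of peaks. The outermost peaks inside lay 16.6 to 43.9 kb from an edge, and widening each window by 20 kb added no region. Just inside the start of the Tnfrsf18 and Tnfrsf4 window the first peak had a fold enrichment of 6.56, and the last one before it, 32.1 kb outside, had 10.5. Stronger peaks lay before the other windows. One 30.8 kb before the Tnfrsf9 window had −log10 q of 93.7 in A384T replicate 1, against at most 57.3 inside. One 114.1 kb before the Tnfrsf1b and Tnfrsf8 window had 122.5 in WT replicate 1, against at most 113.5 inside. The nearest peak after any window lay 21.2 kb beyond the Tnfrsf1b and Tnfrsf8 window, in A384T replicate 1, with a fold of 9.29. Neighbouring summits inside the windows were 349 to 33676 bp apart with a median of 7414 bp, and 6 of the 24 gaps were under 1500 bp.

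The share of each peak list that fell in the 3 windows was higher on average in A384T, but the genotypes overlapped. The WT libraries had 25, 1 and 2 peaks there, which is 0.121% of the list (exact 95% interval 0.0781 to 0.178%), 0.0573% (0.00145 to 0.319%) and 0.0512% (0.0062 to 0.185%). The A384T libraries had 22, 8 and 3 peaks, or 0.121% (0.076 to 0.183%), 0.12% (0.0519 to 0.237%) and 0.146% (0.0302 to 0.427%). The groups overlapped: WT replicate 1 lay with the A384T libraries and the other 2 WT libraries lay below all of them. The mean share was 0.0764 ± 0.0385% for WT and 0.129 ± 0.0148% for A384T (SD, n = 3 each), or 0.0529 percentage points more (p = 0.2, two-sided exact permutation test, which cannot go below 0.1 with 3 against 3). Between libraries of the same replicate number A384T was higher by 0.000593, 0.0629 and 0.0951 points. The replicate 1 pair was close to a tie, at 0.121% in each library, though all 3 signs were the same. With the replicate numbers as a block the exact sign-flip p was 0.25, the smallest that 3 pairs allow. Within the 49 bp libraries the groups did not overlap, at 0.0542 ± 0.00428% for WT and 0.133 ± 0.0185% for A384T (SD, n = 2 each; exact permutation p = 0.333, two-sided, the smallest that 2 against 2 allows). The 51 bp libraries gave 1 value per genotype, and both were 0.121%. All intervals here are Clopper-Pearson intervals and cover counting error only.

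The windows differed in how their shares were spread. For Tnfrsf18 and Tnfrsf4 the mean share was 0.0389 ± 0.0164% for WT and 0.041 ± 0.00975% for A384T (SD, n = 3 each; two-sided exact permutation test, p = 0.9, 0.9 after Benjamini-Hochberg adjustment over the 3 windows). That difference of 0.00208 points turned to -0.000471 without WT replicate 1, to -0.00456 without WT replicate 3, to -0.00182 without A384T replicate 3 and to -0.00203 within the 49 bp libraries. For Tnfrsf9 the counts were 5, 0 and 0 in the 3 WT libraries and 4, 2 and 1 in the 3 A384T libraries, with mean shares of 0.00804 ± 0.0139% and 0.0336 ± 0.0137% (SD, n = 3 each; exact permutation p = 0.2, adjusted 0.6). For Tnfrsf1b and Tnfrsf8 the counts were 13, 0 and 1 in WT and 10, 4 and 1 in A384T, with mean shares of 0.0294 ± 0.0315% and 0.0547 ± 0.00567% (SD, n = 3 each; exact permutation p = 0.4, adjusted 0.6). That difference of 0.0252 points was 0.0419 without WT replicate 1 and 0.0105 without WT replicate 2. The 2 short WT lists thus had no peak in the window of Tnfrsf9, the gene of CD137, while every A384T list had at least 1. The exact 95% intervals of these WT shares were 0 to 0.211% for replicate 2 and 0 to 0.0944% for replicate 3. They hold the shares of all 3 A384T lists, which were 0.022, 0.03 and 0.0488%. Intervals this wide can neither show a loss in WT nor exclude one.

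**Figure D2:**
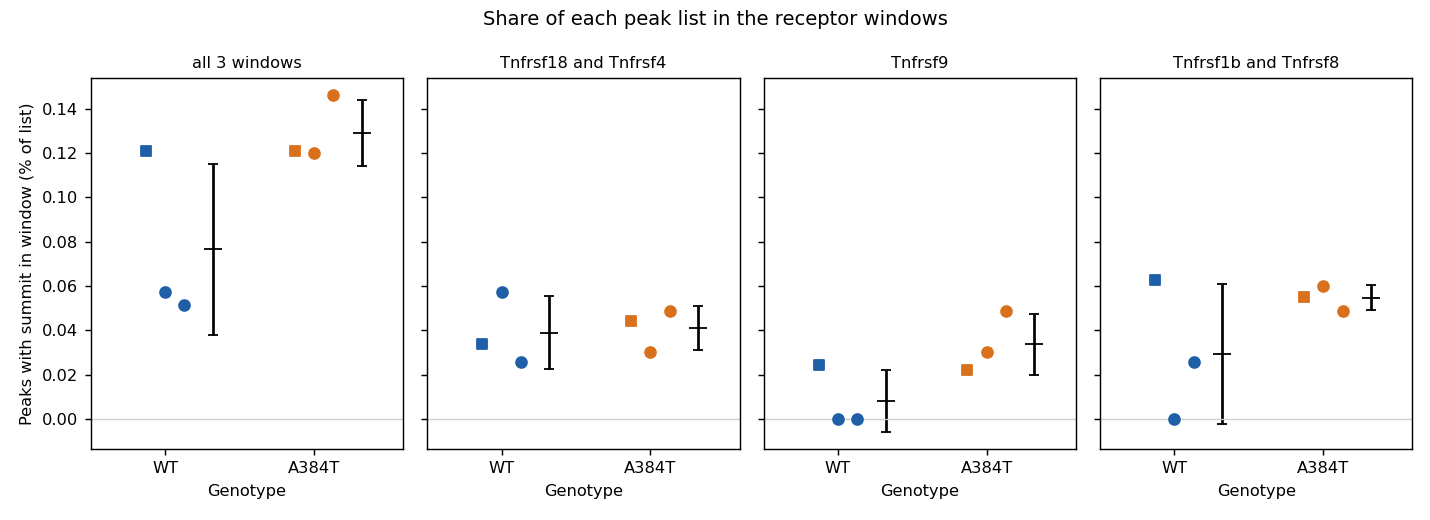
Peaks with a summit in the windows as a percent of each library's list, for all 3 windows together and for each. Points are libraries (squares are replicate 1, circles replicates 2 and 3) and the black marks are mean ± SD (n = 3); WT replicates 2 and 3 lie at 0 in the Tnfrsf9 panel and all A384T libraries lie above 0 in every panel.

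Most receptor regions were found in both genotypes, and none was restricted to one of them by the rule of at least 2 libraries of a genotype and none of the other. Both genotypes had a peak in 20 of the 27 regions (74.1%, exact 95% interval 53.7 to 88.9%), against 56% of all regions. The rule for restriction called 0 of 27 in each direction, where it called 0.763% of all regions for A384T and 0.872% for WT. A single library accounted for the other 7 regions, 5 from WT replicate 1 and 2 from A384T replicate 1. All 20 shared regions had a peak in both replicate 1 lists, and 12 of them (60%) had a peak in no other library, against 53.5% of all regions of both replicate 1 lists. In all, 19 of the 27 regions (70.4%) were seen only in replicate 1 lists, close to the 71.1% of all regions.

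These counts moved with the long replicate 1 lists, as they did genome-wide. Without WT replicate 1 the number in both genotypes fell from 20 of 27 to 2 of 22 (9.09%), where the share of all regions fell from 56% to 19.1%. Then 6 regions had a peak in at least 2 A384T libraries and no WT library, which is 6 of 22 beside 16.5% of all regions. Without A384T replicate 1 the number in both genotypes was 8 of 25 (32%), beside 29.6% of all regions. When each list was limited to its 1746 peaks of highest −log10 q, 4 window regions were left. One of them, from 144784796 to 144785081, had a peak in 2 A384T libraries and no WT library, a class that then held 9.59% of all regions.

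The region found in all 6 libraries lay in the Tnfrsf18 and Tnfrsf4 window, at chromosome 4 from 155378058 to 155378508. Its −log10 q was 69.2, 22.5 and 26.6 in the 3 WT libraries and 32.6, 59.1 and 26.1 in the 3 A384T libraries. WT replicate 1 and A384T replicate 2 were high and the other 4 libraries were close together, so the genotypes overlapped. Fold enrichment, the authors' ratio of the ChIP pileup to the local control background, was 23.96, 9.49 and 11.15 in the WT libraries and 12.46, 14.78 and 11.73 in the A384T libraries. The 6 summits lay within 37 bp of each other, from 155378246 to 155378283. Peak widths ran from 170 to 385 bp.

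Peak values carry no scale shared between libraries, so genotypes were compared by the rank of this region among the 962 regions found in all 6 libraries. By −log10 q it stood at percentiles of 2.7, 20.2 and 9.62 in the 3 WT libraries and of 1.25, 26.9 and 32 in the 3 A384T libraries. The lowest values came from both replicate 1 libraries, and the genotypes overlapped. The mean was 10.8 ± 8.82 for WT and 20 ± 16.5 for A384T (SD, n = 3 each), 9.2 percentile points apart (two-sided exact permutation test, p = 0.5; Benjamini-Hochberg adjusted over the 962 regions, 0.812, where the smallest adjusted value was 0.403). Ranked by fold instead, the mean percentile was 25.3 ± 2.27 for WT and 27.3 ± 24.5 for A384T (SD, n = 3 each). Ranks that did not overlap between genotypes were seen in 24.8% of the 962 (13.3% with all WT ranks above and 11.5% with all A384T ranks above). Without A384T replicate 1 the region ranked higher in both remaining A384T libraries than in any WT library, and 31.9% of the regions then shared had ranks that did not overlap. Of all 27 window regions, 1 (3.7%) was found in all 6 libraries, against 3.88% of all regions.

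Of the other 7 regions of this window, 6 had a peak in the replicate 1 lists alone. The exception, the region from 155395922 to 155396659, had −log10 q of 55.1 in WT replicate 1, 49.9 in A384T replicate 1 and 14.5 in A384T replicate 2, with no peak in the other 3 lists. In WT replicate 1 it was the widest peak of this window, at 738 bp, and its 3 summits were spread over 206 bp. A smaller region lay just beside it, from 155395523 to 155395714, with summits 838 bp away and −log10 q of 19.8 in WT replicate 1 and 25.6 in A384T replicate 1. The regions from 155387749 to 155388075, from 155404735 to 155405078 and from 155405968 to 155406285 had −log10 q of 16.7, 17.6 and 23.7 in WT replicate 1 and of 32.7, 36.1 and 30.4 in A384T replicate 1. This window had 5 regions in both replicate 1 lists and in no other. Of these, 1 was higher in WT replicate 1 and the other 4, these 3 included, in A384T replicate 1. Of all regions of both replicate 1 lists, those found in further libraries included, 51.9% were higher in WT replicate 1. That share was not computed for regions in no other list, so it is not a like comparison. The 1 against 4 is a difference between single libraries with no replicate check. The control background implied at the summits of the 3 regions listed together was also higher in WT replicate 1. It was 6.63, 5.89 and 5.89 tags there against 3.82, 3.82 and 4.32 in A384T replicate 1. At the region from 155395523 to 155395714 it was about even, at 3.2 tags in WT replicate 1 and 3.3 in A384T replicate 1. The part of the background in the result was not tested.

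At the other end of the window a pair of regions lay 780 bp apart. The one from 155367224 to 155367455 had a pileup of 73, a fold of 7.79 and a −log10 q of 39.1 in WT replicate 1, against 52, 5.92 and 22.3 in A384T replicate 1, so it was the one higher in WT. Its implied control background was 8.5 and 7.96 tags, the highest among the regions shared by both replicate 1 lists and by no other library. Its partner, from 155366426 to 155366706, was in A384T replicate 1 only, with a fold of 6.56 over a background of 10.12 tags.

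In the Tnfrsf9 window the region from 150311894 to 150312382 had a peak in every A384T library and in 1 WT library. Its −log10 q was 26.2 in WT replicate 1 and 57.3, 34.4 and 35.3 in the 3 A384T libraries, with no peak in WT replicates 2 and 3. Within their own lists these peaks stood at the 32.9 percentile in WT replicate 1 and at the 71.1, 56.7 and 70.2 percentiles in the 3 A384T libraries. All 3 A384T libraries thus ranked it above the single WT library. Percentiles of lists of different length cannot show whether the genotypes differed. The 4 summits lay within 53 bp. Its neighbour 2020 bp away, from 150314050 to 150314336, was in WT replicate 1 only, with −log10 q of 22.4.

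A broader region of this window, from 150289213 to 150289897, had peaks of 633, 610 and 430 bp in WT replicate 1, A384T replicate 1 and A384T replicate 2. Their −log10 q was 43.8, 56.2 and 41.2 and their fold 16.62, 18.71 and 11.75. A second region lay 841 bp before it, from 150288414 to 150288872, with −log10 q of 34.9 in WT replicate 1 and 31.3 in A384T replicate 1 over an implied background of 8.1 and 6.1 tags. The fifth region of the window, from 150298527 to 150298816, lay between these and had a peak in both replicate 1 lists, with −log10 q of 39.6 and 33.8 and fold of 10.71 and 10.38.

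The Tnfrsf1b and Tnfrsf8 window held the window peak of highest −log10 q in both replicate 1 lists and in WT replicate 3; in WT replicate 2 and A384T replicate 2 that peak lay in the Tnfrsf18 and Tnfrsf4 window, and in A384T replicate 3 in the Tnfrsf9 window. The region from 144784796 to 144785081 had −log10 q of 61.9 in WT replicate 1 and of 113.5, 36.1 and 31.7 in the 3 A384T libraries, with no peak in WT replicates 2 and 3. It stood at the 77.4 percentile of the WT replicate 1 list and at the 91.7, 59.8 and 63.2 percentiles of the A384T lists, so that here the WT library lay among the A384T libraries. The 4 summits fell within 6 bp of each other, between 144784947 and 144784953. With the region near 150312223 in the Tnfrsf9 window this was 1 of 2 receptor regions present in 3 A384T libraries and just 1 WT library. These are 2 of 27 (7.41%, exact 95% interval 0.91 to 24.3%), against 1.72% of all regions. They are also 2 of the 4 receptor regions found in at least 4 libraries (50%, 6.76 to 93.2%), against 12.2% of all such regions. Each interval holds the value it is set against. The reverse pattern, all 3 WT libraries and just 1 A384T library, was seen in 0 of 27 and in 0.149% of all regions.

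The region from 144844282 to 144844779 had a peak in 2 libraries of each genotype. Its −log10 q was 63.5 in WT replicate 1, 32.5 in WT replicate 3, 76.6 in A384T replicate 1 and 32.5 in A384T replicate 2. The groups overlapped, and the replicate 1 library was the higher one in both. The fold was 17.49 and 13.69 in the WT libraries and 22.19 and 12.23 in the A384T libraries. Summits were spread over 151 bp.

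Another pair of regions in this window had a peak in both replicate 1 lists and in A384T replicate 2. From 144890139 to 144890394 the −log10 q was 57.2 in WT replicate 1, 56.4 in A384T replicate 1 and 44.8 in A384T replicate 2, and the percentiles in the own lists were close, at 74.6, 70.5 and 71.1. From 144825872 to 144826340 they were far apart. There the −log10 q was 103.3 in WT replicate 1, 50.2 in A384T replicate 1 and 16 in A384T replicate 2, at percentiles of 90.5, 65.2 and 6. This was the highest-ranked window peak of WT replicate 1, with a fold of 25.26.

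The remaining 10 regions of this window came from the replicate 1 libraries alone. Those shared by both ranged in −log10 q from 29.8 to 53.4 in WT replicate 1 and from 17.3 to 32.2 in A384T replicate 1. Each of the 5 was higher in WT replicate 1. Among all regions of both lists, those found in further libraries included, 51.9% were higher there. That share was not computed for regions in no other list, so it is not a like comparison. These are single libraries with no replicate check. The implied control background was lower in WT replicate 1 at 4 of the 5, for example from 144800437 to 144801305 (1.77 against 3.05 tags), and its part in the result was not tested. They differed in width as well as in q at the region from 144800437 to 144801305, where WT replicate 1 had a peak of 869 bp with a fold of 16.62 and A384T replicate 1 one of 176 bp with a fold of 7.65. A close pair, with summits 349 bp apart, lay from 144839959 to 144840202 and from 144840303 to 144840496, with −log10 q of 49.2 and 32.9 in WT replicate 1 and of 21.4 and 19.4 in A384T replicate 1. Of the 5 regions in 1 list, 4 were in WT replicate 1, with −log10 q from 14.8 to 43.4. The other was in A384T replicate 1, at 26.5.

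**Figure D3:**
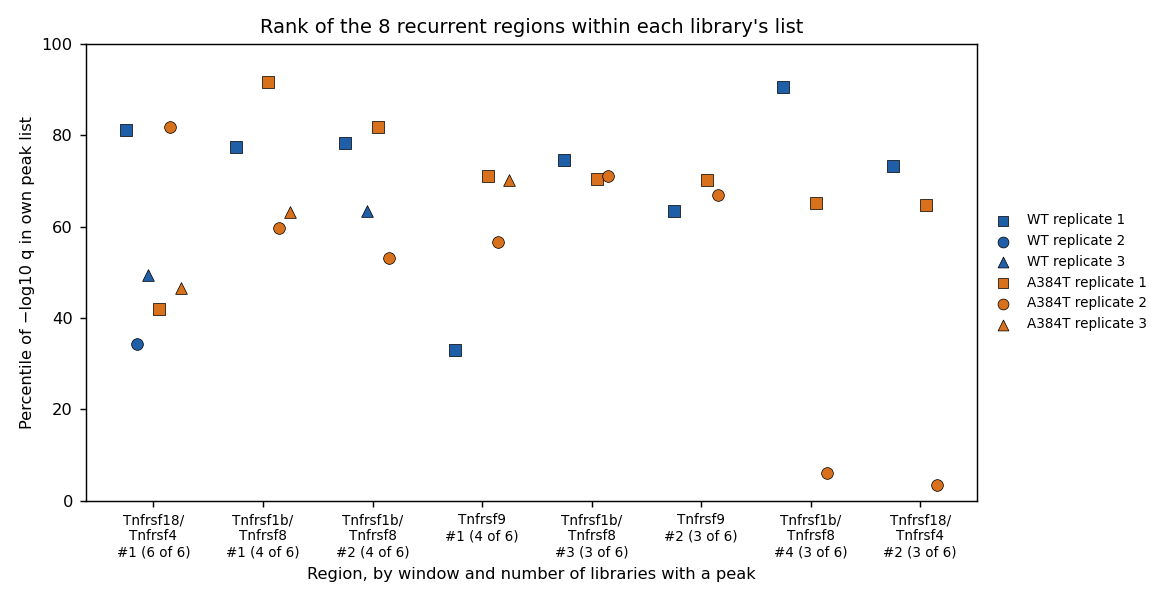
Percentile of each peak's −log10 q within its own list (y axis), for the 8 regions found in at least 3 libraries (x axis, with the number of libraries). Colour is the genotype (WT blue, A384T orange) and shape the replicate; the region of all 6 libraries spans 34.2 to 81.8, and the 2 regions with the widest spread end at the 6 and 3.3 percentiles of A384T replicate 2.

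The receptor regions that recurred had the higher median −log10 q in the replicate 1 lists, though not every one was strong. The 8 regions with a peak in at least 1 further library had a median −log10 q of 59.6 in WT replicate 1 and 56.3 in A384T replicate 1, at median percentiles of 76 and 70.4. The 12 regions of both replicate 1 lists and no other library had medians of 33.9 and 28, at percentiles of 49.1 and 31.8. The 2 classes overlapped, with values of 26.2 to 103 and of 16.7 to 53.4 in WT replicate 1. In A384T replicate 1 the values were 32.6 to 113 and 17.3 to 36.1. The value of 32.6 was that of the region found in all 6 libraries. Across the 20 regions of both lists the order by −log10 q was related between WT replicate 1 and A384T replicate 1 with a Spearman rho of 0.392, and across all 13567 such regions with 0.561. This is across regions of 2 libraries that share their tag length. WT replicate 1 had the higher −log10 q in 12 of the 20, near the 51.9% of all such regions.

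Recurrence in the shorter lists was set against all regions of both replicate 1 lists, because it depends on the length of a list. Of the 20 receptor regions, WT replicate 2 held 1 (5%, exact 95% interval 0.127 to 24.9%) against 12.1% of all 13567 such regions, and WT replicate 3 held 2 (10%, 1.23 to 31.7%) against 24.4%. A384T replicate 2 held 8 (40%, 19.1 to 63.9%) against 42.8%, and A384T replicate 3 held 3 (15%, 3.21 to 37.9%) against 14.2%. The A384T shares were thus close to the genome-wide share and the WT shares below it, though every interval holds the genome-wide value. When these 4 lists were limited to 1746 peaks each, WT replicate 2, WT replicate 3 and A384T replicate 2 held 1 receptor region each and A384T replicate 3 held 3, where 12.1 to 12.5% of all such regions were found.

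More A384T than WT libraries had a peak in 6 of the 20 receptor regions (30%, exact 95% interval 11.9 to 54.3%), against 24.6% of all regions of both replicate 1 lists. More WT than A384T libraries had a peak in 0 of the 20 (0 to 16.8%), against 7.04%. The genotypes were even in the other 14 (70%), against 68.4%. The intervals of the unequal classes hold the genome-wide values, and all regions of both replicate 1 lists also leaned towards A384T. The A384T replicate 2 list (6657 peaks) is longer than either short WT list. That of A384T replicate 3 (2050) is shorter than that of WT replicate 3 (3905). The part of list length in the lean was not tested.

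**Figure D4:**
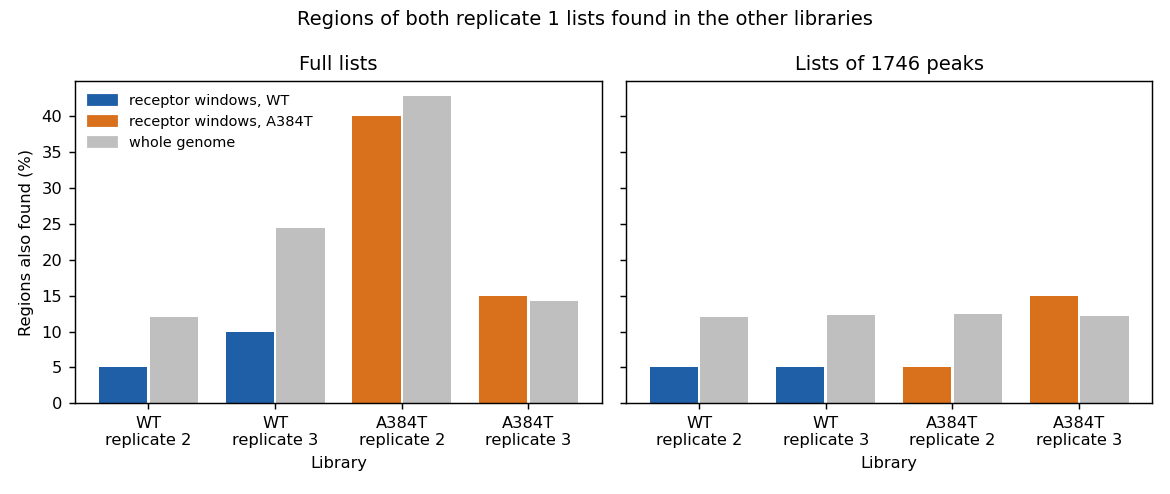
Percent of the regions of both replicate 1 lists that also had a peak in each of the other 4 libraries (y axis), for the 20 receptor regions (coloured bars, WT blue and A384T orange) and for all 13567 such regions (grey bars), with full lists and with lists of 1746 peaks. With full lists the coloured bars are at 5, 10, 40 and 15% and the grey bars at 12.1, 24.4, 42.8 and 14.2%.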

How the data were processed

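FoxP3 ChIP-seq peak lists of 6 libraries were used, with groups and replicate numbers from the sample titles; no input library was used as a sample. Per the submitters' processing notes Bowtie2, MACS2 and the build mm9 were used. Per the file headers MACS 2.1.0.20140616 called peaks on each library alone against 1 control at a q cutoff of 1e-10, keeping 1 tag per position and scaling the larger set towards the smaller. The deposited lists give the pileup (a signal value) at each summit, the −log10 of the p-value and q-value, the fold enrichment (a ratio) and other values, namely positions and lengths.

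Unplaced sequences were left out, and peaks sharing 1 bp or more were joined. The control background was computed as (pileup + 1) / fold − 1; its lowest value in each list was within 0.01 tags of the mean background given by the header's tag count, fragment length and genome size. Genotypes were compared with two-sided exact permutation tests over libraries. Same-numbered libraries deviated together from their group means over the 962 regions of all libraries, weakly for number 2. The correlations were 0.435, 0.123 and 0.374 for numbers 1, 2 and 3, and from -0.354 to 0.019 between different numbers. Deviations within a group cancel out, so these correlations are not independent, and the number 1 libraries share their 51 bp tags. Whether the numbers pair the libraries is therefore not settled by the data. The main tests left the numbers out, and a block of replicate numbers was run as an alternative. Named were regions in at least 4 libraries and the best-ranked region of each window; all others named were chosen after their values were seen. Members, lists and tests were chosen with earlier results of these data known. Joining and ranking were tested only on simulated lists with widely spaced regions and large rank shifts. That check covers neither close neighbours, such as those in these windows, nor small shifts. Alternatives were other list lengths, thresholds, joining rules, window edges, rankings and scales, and each library left out. The tools were scipy 1.17.1, pandas 2.3.3, numpy 2.4.6 and matplotlib 3.10.9 under Python 3.11.15.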

Additional observations from a re-analysis of the deposited data

How the results depend on the processing

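Of 99 alternatives to 8 results, 89 kept the direction of the difference or stayed within 1.5 times the count, 6 moved a count and 4 reversed a sign. No exact test could pass 0.05 in this design, so the alternatives say nothing about a threshold. The reversals all concerned the share in the Tnfrsf18 and Tnfrsf4 window, which was -0.00203 points within the 49 bp libraries and ran from -0.00456 to 0.0113 with each library left out. The other differences in share ran from 0.0403 to 0.075 points for all 3 windows, 0.018 to 0.0336 for Tnfrsf9 and 0.0105 to 0.0419 for Tnfrsf1b and Tnfrsf8. With lists of equal length 1 of 4 regions (25%) was in both genotypes, against 45% of all regions. Another 1 was restricted to A384T, a class that held 9.59% of all regions. Fewer peaks remain there by construction. With each library left out, 2 to 20 regions were in both genotypes, 0 to 6 were restricted to one, and 0 to 1 had ranks that did not overlap. The 2 and the 6 came without WT replicate 1. There 19.1% of all regions were in both genotypes and 16.5% were restricted to A384T. The 1 came without A384T replicate 1, where ranks did not overlap in 31.9% of the regions then shared. The rank difference ran from 4.96 to 18.6 points. With the replicate numbers as a block the difference of 0.0529 points had an exact sign-flip p of 0.25, the smallest that 3 pairs allow, and the block changed no other call. A log2 scale could not be computed for windows in which a library had no peak.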
